A study of Mus musculus with 12 samples.

Results

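Ppp4r1, Pdzd11, Rangap1, Kif4 and Optn are 5 protein-coding mouse genes that have been reported as targets of endogenous small interfering RNAs (endo-siRNAs) in oocytes. They were taken by name, and all 5 were found among the 47643 genes counted in 12 poly(A) RNA libraries and were among the 14629 genes that passed the filter on low counts. The libraries came from mouse E14 embryonic stem (ES) cells of the 129/Ola background, from 6 groups with 2 libraries each. All grew in serum and LIF on gelatine, with puromycin at 1 µg/mL in the medium.

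The groups were WT, KO (which lacks Dicer) and SOM, 41584, 41585 and 41589, which are lines complemented with Dicer. By their labels, 41584 resembles WT, 41589 lacks siRNA processing, and 41585 lacks the processing of both miRNAs and siRNAs. The label of SOM gives no processing state. The sources used here do not explain these 4 names and do not say whether a line is 1 clone. For the question of whether these genes differ with siRNA processing, WT and 41584 (4 libraries) stood as the siRNA-competent lines and KO, 41585 and 41589 (6 libraries) as the siRNA-deficient lines, with SOM on neither side. KO and 41585 lack miRNA processing too, so in those lines the loss of siRNAs and the loss of miRNAs cannot be told apart. The comparison of 41589 with 41584 is the one in which, by the labels, only siRNA processing differs.

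Endo-siRNAs are cut by Dicer from long double-stranded RNA. In mouse oocytes such RNA forms from inverted repeats, from sense and antisense transcripts that overlap, and from a gene's mRNA paired with an antisense transcript of its pseudogene, and the siRNAs then guide Argonaute 2 to cut the matching mRNA. Oocytes carry a shortened Dicer form that handles long double-stranded RNA well, whereas the full-length form of other cells mainly cuts miRNA precursors. No small RNA was measured here, and the values below are mRNA levels.

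The sequences that could pair with these mRNAs were looked up first, in the GENCODE M21 transcripts on GRCm38. For Ppp4r1 and Rangap1, a 60-nucleotide (nt) stretch of the coding sequence is shown beside its pseudogene copies. It was picked as the stretch with the fewest mismatches, so the copies are near-identical there. Letters are lower case, and capitals mark the bases at which a copy differs from the gene.
Ppp4r1: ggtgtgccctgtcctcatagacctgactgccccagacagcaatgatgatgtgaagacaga
Gm15681: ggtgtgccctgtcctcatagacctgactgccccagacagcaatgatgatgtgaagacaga
Rangap1: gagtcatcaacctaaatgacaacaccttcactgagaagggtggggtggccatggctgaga
Gm7162: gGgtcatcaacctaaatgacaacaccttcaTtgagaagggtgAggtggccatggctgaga
Gm16574: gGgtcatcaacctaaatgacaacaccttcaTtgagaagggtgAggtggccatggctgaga

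The Ppp4r1 stretch lies in exon 6 (chr17:65811320-65811379, plus strand) and had 0 mismatches in the processed pseudogene Gm15681 (chr8:99147619-99147678, minus strand). In all, Gm15681 aligned to 2753 nt of the Ppp4r1 mRNA at 89% identity. Rangap1 had 2 processed pseudogenes that face each other on chromosome 17. The stretch shown spans the junction of exons 7 and 8 of Rangap1 (chr15:81712135-81712877, minus strand), and the copies lie at chr17:12820077-12820136 (minus strand) in Gm7162 and at chr17:12818900-12818959 (plus strand) in Gm16574. Both copies carry the same 3 mismatches to Rangap1. Gm7162 aligned to 1040 nt of the Rangap1 mRNA at 88.3% identity, and Gm16574 to 354 nt at 89.3% and 399 nt at 86.7%. The pair stands on opposite strands with 281 nt between them and shares 354 nt at 91.5% identity, so a transcript through both would contain an inverted repeat.

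**Figure D1:**
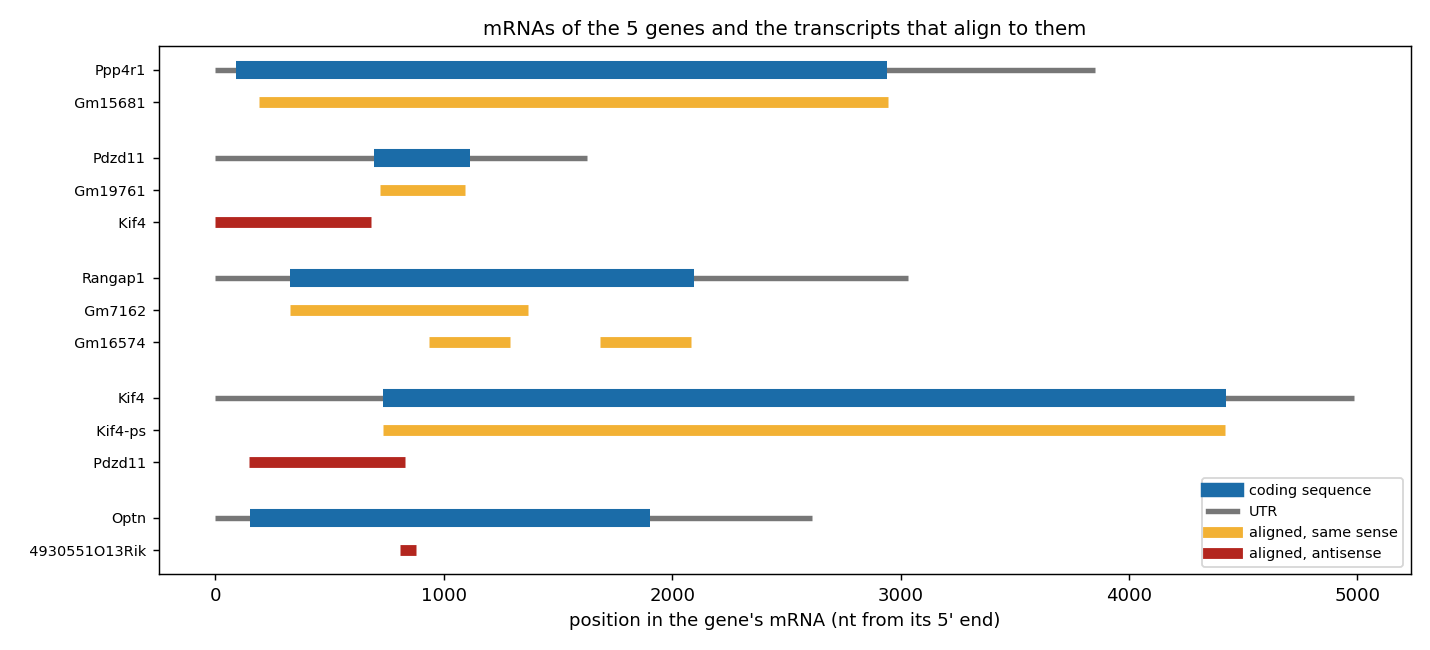
The mRNA of each of the 5 genes is drawn to scale (nt from its 5′ end, coding sequence in blue, UTRs in grey), with the transcripts that align to it below, in yellow for the same sense and in red for antisense. Gm15681 and Kif4-ps cover 2753 nt and 3687 nt, most of the coding sequence of Ppp4r1 and Kif4, while the antisense stretches of Kif4 and Pdzd11 cover their 5′ ends.

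Optn has an annotated antisense transcript, 4930551O13Rik, which is complementary to 74 nt of its mRNA in exon 6 (chr2:5040200-5040273, Optn on the minus strand). The stretch of the Optn mRNA is shown as the longest one fully complementary to that transcript, among stretches of at least 60 nt. Shorter or imperfect matches were not examined.
Optn: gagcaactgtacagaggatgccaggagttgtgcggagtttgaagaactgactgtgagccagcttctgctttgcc

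Kif4 and Pdzd11 are neighbours on the X chromosome that start head to head. Their gene models overlap over 832 nt (chrX:100625737-100626568), and 684 nt of their mRNAs are complementary. Kif4 also has a processed pseudogene on chromosome 12, Kif4-ps, at 79.5% identity over 3687 nt of the mRNA, and Pdzd11 has one on chromosome 7, Gm19761, at 80.3% over 372 nt. Of all stretches of 50 nt in the Pdzd11 mRNA, 40.3% also occur on the opposite strand in Kif4, and 15.9% of those of Kif4 occur in Pdzd11. The libraries were reverse-stranded by the labels. The sources used here do not say whether the counting used the strand, so reads from this overlap could have been assigned to the wrong gene. Of the stretches of Ppp4r1, 1.53% also occur in Gm15681.

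The pseudogene and antisense transcripts gave next to no reads. Gm15681, Gm7162, Gm16574, Gm19761 and 4930551O13Rik, which were chosen after their alignments were seen, had 0 reads in all 12 libraries together, out of 92195527 counted reads. Pooled over the 12 libraries, a count of 0 allows a mean level of up to 0.0325 CPM (reads scaled to library size, as described under the processing). This rests on the limit of 3 counts, which covers counting error only, and the limit within a single library is higher. The pseudogene copies are annotated in the same sense as the genes, and RNA antisense to the genes from these places was not examined separately. Kif4-ps had 6 reads in total. The sources used here do not say how reads that match several places were treated, so a 0 in a copy is a 0 of the deposited table. The 4 pseudogenes with 0 reads aligned to their genes at 80.3% to 89.3% identity. Of the 50-nt stretches, 1.53% for Ppp4r1, 0.268% for Rangap1 and 0% for Pdzd11 also occur on the same strand in another gene. The part of reads matching several places in these zeros was not tested. Transcripts without a poly(A) tail were not sampled.

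The libraries held 5348401 to 10428509 counted reads. Dicer1, the targeted gene, stood at 197.5 and 213.6 CPM in WT, 104.7 and 214.9 CPM in SOM, and 27.8 to 55.0 CPM in every library of KO, 41584, 41585 and 41589. The part of Dicer1 that was removed or put back is not given, so a low level in 41584 does not by itself go against its label. The first principal component (47% of the variance) set KO and 41585 apart from the rest. The second (19.5%) put replicate 2 of 41584 and replicate 2 of 41589 beside both SOM libraries, at −39.6 to −51.1, apart from replicate 1 of the same lines at 27.0 and 9.03. Several results below, named where they appear, are also given without these 2 libraries, a choice made after seeing the data. ES cell markers were high in every library (Pou5f1, Nanog, Sox2, Zfp42, Esrrb and Dppa5a summed to 4482 to 6192 CPM). Of 9 oocyte markers, Oosp1 was at 0 in all 12 libraries and the sum reached 2.44 to 11.9 CPM. This sum was 7.46 to 11.9 CPM in 41585 and 2.94 to 3.72 CPM in WT, mostly from Zp3, and its part in the results was not tested. Of the 6 ES cell markers only Pou5f1 was called in the siRNA-deficient against siRNA-competent lines, beside 21.8% of all tested genes. It was higher in the deficient lines (639.9 against 300.1 CPM, adjusted p = 0.0215 by edgeR), while the median log2 difference of the 6 was −0.12. Of 6 fibroblast markers the 1 tested, Thy1, was not called.

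Per kilobase of exon, Rangap1 was the most abundant of the 5 genes with a mean of 41.4 CPM per kb over the 12 libraries. Kif4 (19.1), Ppp4r1 (16.2) and Pdzd11 (15.3) lay close together in CPM per kb, and Optn had the lowest level with 3.93 CPM per kb. Optn was also the least deeply counted gene, with 47 to 157 reads per library, against 341 to 1035 for Ppp4r1 and 732 to 3200 for Rangap1.

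**Figure D2:**
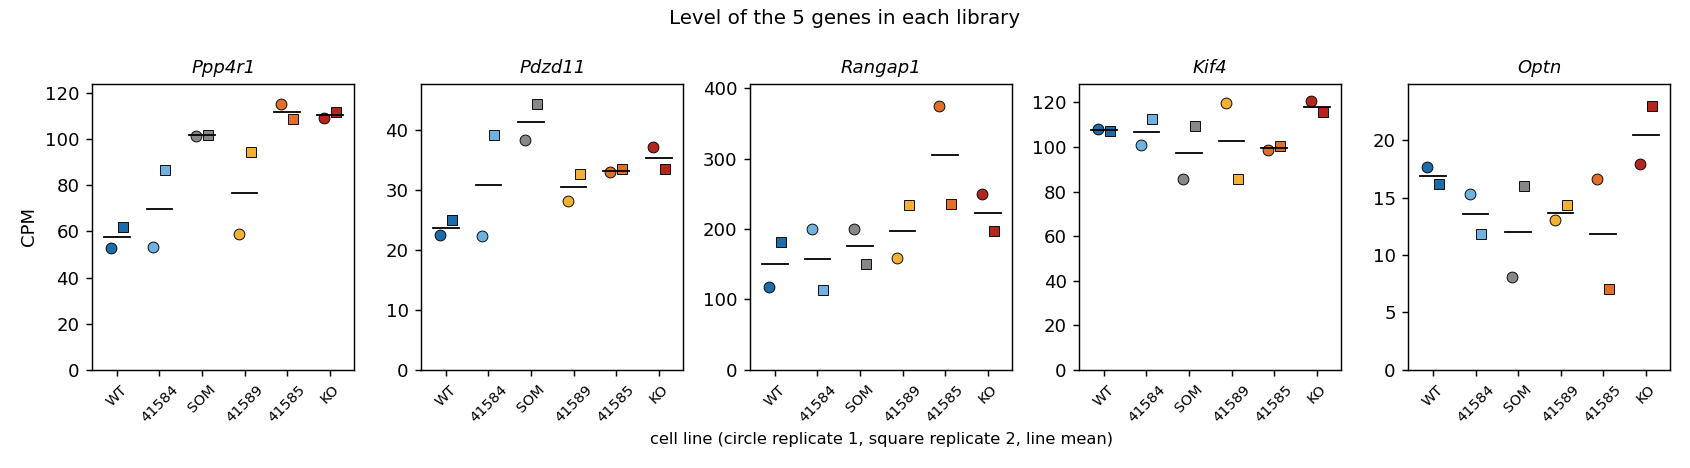
CPM of each gene (linear axis from 0) in the 6 groups, with circles for replicate 1, squares for replicate 2 and a line at the mean of the 2 libraries. Ppp4r1 lies at 101.3 CPM or above in SOM, 41585 and KO and at 62.1 CPM or below in WT and in replicate 1 of 41584 and of 41589, with replicate 2 of these 2 lines at 86.6 and 94.5 CPM, while Kif4 stays between 85.6 and 120.6 CPM.

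Across the siRNA-deficient and siRNA-competent lines, 1 of the 5 genes, Ppp4r1, was called different, and it was higher in the deficient lines. In the same comparison 21.8% of all tested genes were called (1705 higher and 1481 lower). None of the 5 was called lower. The median log2 difference of the 5 genes was 0.29, beside 0.00 over all genes tested, and 3 of the 5 differences were above 0. Calls were made with edgeR's quasi-likelihood test at a Benjamini-Hochberg adjusted p under 0.05 over all tested genes. Nothing in the labels says that paired libraries of a line were grown separately. The p-values thus reflect the scatter of these 12 libraries alone, which may be technical.

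Ppp4r1 encodes a regulatory subunit of protein phosphatase 4 (PP4). The gene lies at chr17:65782573-65841926 on the plus strand. Its level was 52.7 and 62.1 CPM in WT and 53.2 and 86.6 CPM in 41584. It was 58.7 and 94.5 CPM in 41589, 115.1 and 108.6 CPM in 41585, and 109.3 and 111.9 CPM in KO (replicates 1 and 2 in each case). SOM, whose processing state is not given, had 101.3 and 102 CPM. The 41585 and KO libraries were thus all above every competent library, whereas replicate 1 of 41589 lay among the WT libraries, so the competent and deficient sides overlap.

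In the deficient lines Ppp4r1 was 1.55-fold the level in the competent lines (log2 difference 0.63 ± 0.18, SE of the fit, 95% interval of the fold 1.19 to 2.03, adjusted p = 0.0267 by edgeR). The call was lost when any 1 of 7 of the 10 libraries was left out, although the difference stayed between 0.48 and 0.70 in those cases, with adjusted p of 0.128 without replicate 1 of WT, 0.05 without its replicate 2, 0.08 without replicate 1 of 41584, 0.0584 without replicate 2 of 41589, 0.0581 without replicate 1 of 41585, and 0.0659 and 0.0611 without replicates 1 and 2 of KO. With the line rather than the library as the unit (3 lines against 2) the difference was 0.68, adjusted p was 0.286 and no gene of the table was called, and with SOM counted as competent the difference was 0.41 (adjusted p = 0.0929). Without replicate 2 of both 41584 and 41589 the difference was 0.70. The median of the tested chromosome 17 genes differed by 0.15 in the deficient against competent lines, so Ppp4r1 minus that median was 0.48. In 41585 against 41584 the median differed by 0.25, and Ppp4r1 minus it was 0.43. For the X chromosome of Pdzd11 and Kif4 the deficient against competent median was −0.16. The part of these chromosome medians in the differences of the genes was not tested.

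Between KO and WT, Ppp4r1 was the 1 of the 5 genes that was called, where 13.2% of all tested genes were. It was higher in KO, at 110.6 ± 1.87 CPM against 57.4 ± 6.64 CPM (SD, n = 2), a 1.92-fold difference (log2 0.94 ± 0.28, adjusted p = 0.041 by edgeR). The call did not survive leaving out any 1 of the 4 libraries, while the difference stayed at 0.83 to 1.07 (adjusted p = 0.254 and 0.104 without replicates 1 and 2 of WT, 0.191 and 0.152 without those of KO). The other 4 genes were not called. Their log2 differences were 0.58 ± 0.29 for Pdzd11 (adjusted p = 0.192 by edgeR), 0.57 ± 0.34 for Rangap1 (0.28), 0.13 ± 0.22 for Kif4 (0.719) and 0.27 ± 0.43 for Optn (0.702).

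In 41589 against 41584, the comparison in which siRNA processing alone differs by the labels, none of the 5 genes was called. Neither was any other gene: edgeR called 0% of the 14629 genes, 103 had an unadjusted p under 0.05, and DESeq2 called 0. The log2 difference of Ppp4r1 was 0.13 ± 0.27, with a 95% interval from −0.46 to 0.73, which corresponds to 0.729- to 1.65-fold. The intervals of the other 4 genes also included 0, from −0.41 to 1.06 for Rangap1, −0.63 to 0.60 for Pdzd11, −0.54 to 0.43 for Kif4 and −0.92 to 0.94 for Optn. These intervals hold both no difference and changes of the size seen between KO and WT for every gene but Ppp4r1, whose KO against WT estimate of 0.94 lies above its upper bound; the difference between these 2 comparisons was not tested. Without replicate 2 of both lines, the 41589 against 41584 difference was 0.15 for Ppp4r1, −0.33 for Rangap1, 0.34 for Pdzd11, 0.26 for Kif4 and −0.23 for Optn, and none was called.

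**Figure D3:**
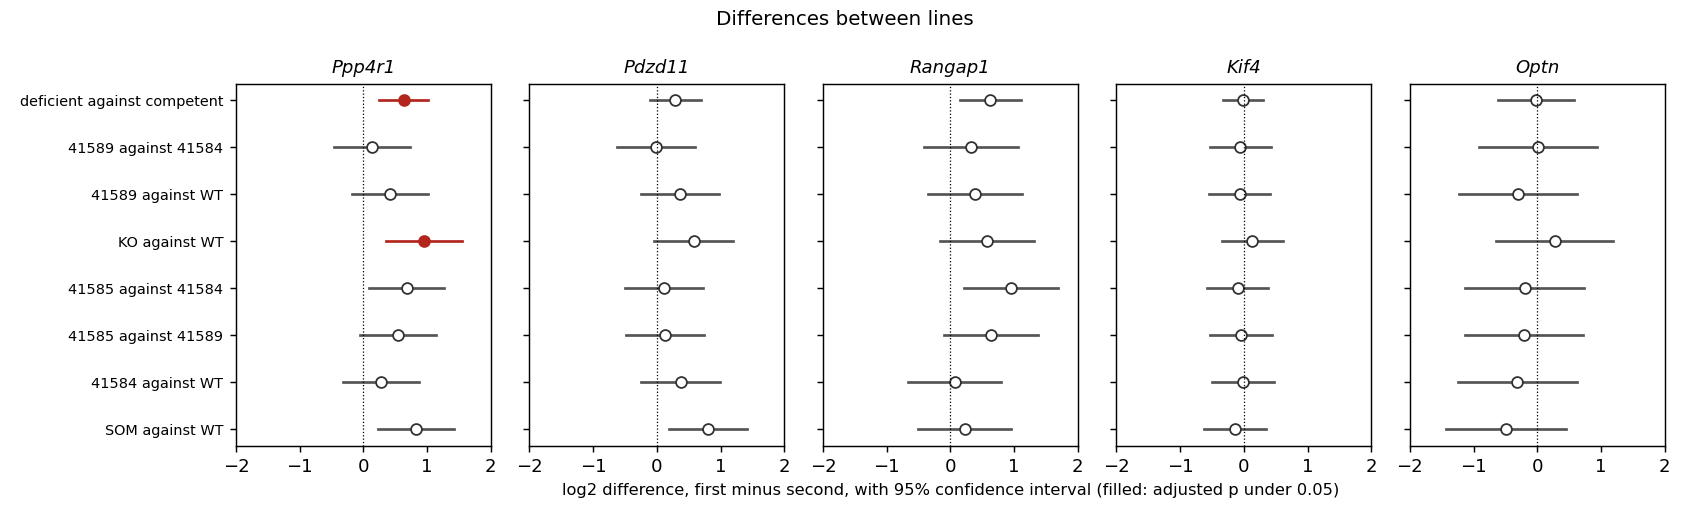
Log2 difference of each gene (first line minus second) in the 8 comparisons, with 95% confidence intervals, filled red where the adjusted p was under 0.05. Ppp4r1 is filled for the deficient against competent lines (0.63) and for KO against WT (0.94), and no other gene is filled in any comparison. Comparisons that name the same line share its libraries.

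Against WT, 41589 gave the same picture: edgeR called none of the 5 genes and 0% of all genes, with 1719 genes at an unadjusted p under 0.05 and 69 called by DESeq2, none of them among the 5. Ppp4r1 differed by 0.42 ± 0.27 (adjusted p = 0.536), or by 0.04 without replicate 2 of 41584 and of 41589, and Rangap1 by 0.39 ± 0.34 (0.635). Likewise edgeR called none of the 5 and 0% of all genes in 41584 against WT (706 genes at an unadjusted p under 0.05, 28 called by DESeq2). There the log2 difference of Ppp4r1 was 0.28 ± 0.28, and it was −0.11 without replicate 2 of 41584.

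In 41585 against 41584 none of the 5 genes was called, beside 12.7% of all tested genes. An unadjusted p under 0.05 by edgeR was found for 2 of the 5 and for 31.96% of all tested genes. Ppp4r1 differed by 0.68 ± 0.27 (adjusted p = 0.111). In 41585 against 41589, where by the labels miRNA processing differs, none of the 5 was called beside 8.33% of all genes. Ppp4r1 differed there by 0.55 ± 0.27 (adjusted p = 0.228). Without replicate 2 of 41584 and of 41589, these 2 differences of Ppp4r1 were 1.07 and 0.93.

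SOM also stood above WT in Ppp4r1, with both libraries higher than both WT libraries. The difference was 0.82 ± 0.28 and was not called (adjusted p = 0.156). edgeR called none of the 5 genes and 0% of all genes in this comparison, with 3175 at an unadjusted p under 0.05 and 673 called by DESeq2. Without replicate 2 of 41584 and of 41589, the SOM against WT difference of Ppp4r1 was 0.83. With those 2 libraries left out, its KO against WT difference was 0.95.

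Hdac1, which encodes a histone deacetylase and is itself known for a pseudogene that gives endo-siRNAs in oocytes, was examined as a further gene of that kind. It stood at 108.3 and 145.0 CPM in WT, 131.8 and 224.9 CPM in 41584, 279.9 and 235.8 CPM in SOM, 158.9 and 224.7 CPM in 41589, 279.6 and 260.9 CPM in 41585, and 263.8 and 222.5 CPM in KO. WT was lowest, and replicate 2 of 41584 and of 41589 stood above replicate 1, as in Ppp4r1. Hdac1 was higher in the deficient lines (log2 0.63 ± 0.19, adjusted p = 0.0302 by edgeR) and in KO against WT (0.94 ± 0.29, adjusted p = 0.0464), and did not differ detectably between 41589 and 41584 (0.10 ± 0.28). Without replicate 2 of 41584 and of 41589 these differences were 0.76, 0.94 and 0.28. Over the 12 libraries, log2 CPM of Ppp4r1 and Hdac1 correlated at r = 0.953, a description over libraries that share lines.

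**Figure D4:**
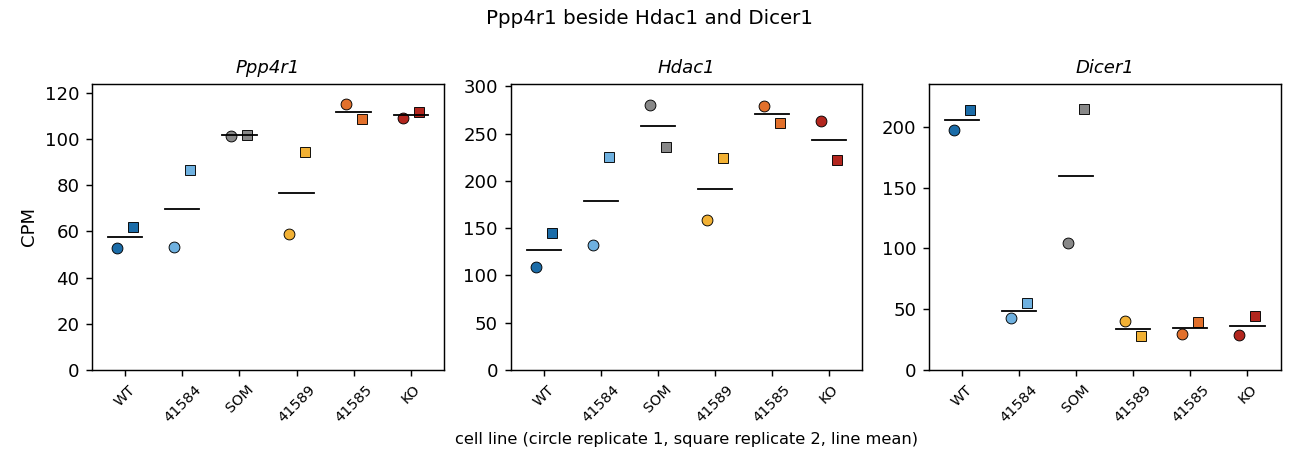
CPM of Ppp4r1, Hdac1 and Dicer1 (linear axes from 0) in the 6 groups, with circles for replicate 1, squares for replicate 2 and a line at the mean. Ppp4r1 and Hdac1 are both low in WT and in replicate 1 of 41584 and 41589, whereas Dicer1 is low in both libraries of 41584 (42.3 and 55.0 CPM) and of 41589 (40.2 and 27.8 CPM).

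Other genes followed Ppp4r1 as closely. Those with the highest correlation of log2 CPM over the 12 libraries were Gdf3, which encodes a TGF-beta family ligand of ES cells (r = 0.981, 15.9 to 114.2 CPM), Ubald1 (r = 0.975) and B3gnt7 (r = 0.971), on chromosomes 6, 16 and 1. Ppp4r1l-ps, an unprocessed pseudogene related to Ppp4r1 by name and chosen after its values were seen, ran the other way (r = −0.768), from 21.3 and 22.6 CPM in WT to 9.39 and 10.2 CPM in KO. That difference was not called (−1.17 ± 0.40, adjusted p = 0.0677).

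Of the PP4 complex list, which holds 8 names including older symbols, 6 genes were tested. None was called higher in the deficient lines and 1 was called lower: Ppp4r2, a regulatory subunit that anchors the catalytic one, at 150.9 against 207.2 CPM (−0.47 ± 0.15, adjusted p = 0.0425). The median log2 difference of the 6 was −0.29, beside 0.00 over all tested genes, of which 21.8% were called. Ppp4r3b (−0.50 ± 0.19, adjusted p = 0.0732) and Ppp4r4 (−1.15 ± 0.44, 0.0766) were not called.

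Rangap1 encodes the protein that makes Ran hydrolyse GTP, and so keeps Ran in its GDP form outside the nucleus. The gene lies at chr15:81704248-81745530 on the minus strand. It had 118.3 and 182.0 CPM in WT and 200.7 and 113.8 CPM in 41584. The level was 159.4 and 234.1 CPM in 41589, 374.4 and 236.2 CPM in 41585, 250.2 and 196.6 CPM in KO, and 200.2 and 150.5 CPM in SOM. The highest library was replicate 1 of 41585 and the lowest replicate 2 of 41584, and replicates within a line differed widely, so the sides overlap and no line was clear of its neighbour in the order of means.

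Rangap1 missed the threshold in the deficient against competent lines, with a log2 difference of 0.63 ± 0.22 (95% interval 0.15 to 1.11, adjusted p = 0.0603 by edgeR). It was called by DESeq2 (0.62, adjusted p = 0.0309) and without the filter on low counts (0.64, adjusted p = 0.00356). Leaving out 1 library also made it a call in 3 cases, replicate 1 of 41584 (0.86, 0.0308), replicate 1 of 41589 (0.71, 0.0314) and replicate 2 of 41585 (0.73, 0.0496). The other 7 such fits gave no call, and the difference dropped to 0.46 (adjusted p = 0.159), 0.49 (0.245) and 0.51 (0.142) when replicate 2 of 41584, replicate 1 of WT or replicate 1 of 41585, respectively, was the library left out. Without the 2 libraries that lay beside SOM the difference was 0.35 (adjusted p = 0.236). In 41585 against 41584, Rangap1 differed by 0.96 ± 0.34 (adjusted p = 0.0797) and was called by DESeq2 (0.93, 0.0483), while leaving out 1 library at a time moved it between 0.57 and 1.42.

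The genes whose levels were most like those of Rangap1 all lie on its own chromosome: Gga1 (r = 0.985), Tst (r = 0.98) and Sbf1 (r = 0.98) over the 12 libraries. The 569 tested genes of chromosome 15 moved together between libraries. Their median deviation in log2 CPM was −0.49 in replicate 2 of 41584, −0.33 in replicate 2 of SOM, −0.23 in replicate 2 of 41585, −0.19 in replicate 2 of 41589, and 0.39 in replicate 1 of 41585. Rangap1 was lowest and highest in the same 2 libraries as this median, replicate 2 of 41584 and replicate 1 of 41585. In the deficient against competent lines the chromosome median differed by 0.05, so Rangap1 minus that median was 0.58. The part of this shift in the spread of Rangap1 between replicates was not tested.

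**Figure D5:**
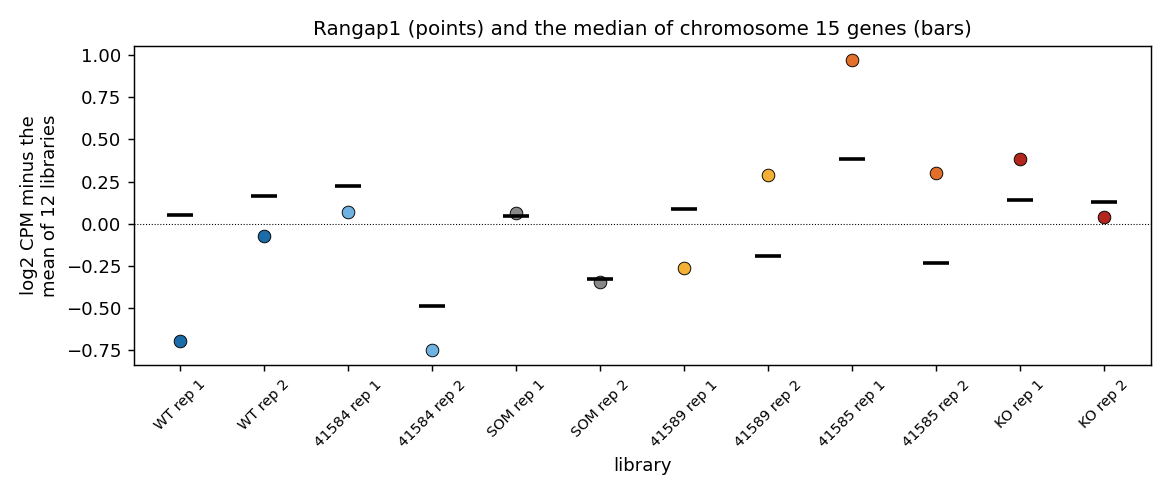
Log2 CPM of Rangap1 (points, coloured by line) and the median of the chromosome 15 genes (bars), each minus its mean over the 12 libraries. Both are lowest in replicate 2 of 41584, where the median is −0.49, and highest in replicate 1 of 41585, where it is 0.39, while in both WT libraries Rangap1 lies below the median.

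None of the 10 tested genes of the Ran cycle list was called in the deficient against competent lines, in either direction. Their median log2 difference was −0.13, and 21.8% of all tested genes were called in this comparison. Ranbp3, a cofactor of nuclear export, was at 51.4 against 28.4 CPM (0.82 ± 0.30, adjusted p = 0.0669). Ranbp2, the nuclear pore protein that holds SUMO-modified RanGAP1, was at 224.6 against 325.3 CPM (−0.56 ± 0.21, adjusted p = 0.0729).

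Pdzd11 encodes a small protein made mostly of 1 PDZ domain, which binds the tails of membrane pumps and the junction protein PLEKHA7. The gene lies at chrX:100622883-100626568 on the minus strand. WT had 22.4 and 24.9 CPM, 41584 had 22.4 and 39.2 CPM, and 41589 had 28.1 and 32.7 CPM. The level was 33.0 and 33.5 CPM in 41585, 37.2 and 33.6 CPM in KO, and 38.4 and 44.3 CPM in SOM. SOM had the highest mean and WT the lowest, but replicate 2 of 41584 lay among the SOM libraries.

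Pdzd11 was not called in any of the 8 comparisons. In the deficient against competent lines the log2 difference was 0.29 ± 0.19 (95% interval −0.11 to 0.69, adjusted p = 0.266). Without replicate 2 of 41584 it was 0.52, and without replicate 2 of both 41584 and 41589 it was 0.48. In SOM against WT it was 0.80 ± 0.29 (adjusted p = 0.164 by edgeR), and without replicate 2 of 41584 and of 41589 it was 0.81. Over the 12 libraries Pdzd11 correlated with Ppp4r1 at r = 0.838 and with its head-to-head neighbour Kif4 at r = −0.037. The most similar genes were Gm12989 (r = 0.981, at most 2.26 CPM), Accsl (r = 0.954) and Epb41l4a (r = 0.948).

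Of 7 tested partners of PDZD11, 1 was called in the deficient against competent lines, beside 21.8% of all tested genes. Plekha7, which brings PDZD11 to cell junctions, was higher, at 74.2 against 43.0 CPM (0.76 ± 0.18, adjusted p = 0.0128 by edgeR). Atp2b1, a calcium pump, was at 104.6 against 140.8 CPM (−0.42 ± 0.16, adjusted p = 0.0803), and Slc5a6, a vitamin transporter, at 17.6 against 13.1 CPM (0.46 ± 0.26, 0.212). The median of the 7 differences was −0.11.

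Kif4 encodes a chromosome-bound kinesin that, with PRC1, sets the length of the central spindle in dividing cells. The gene lies at chrX:100625737-100727214 on the plus strand. Its level was the steadiest of the 5, with 108.1 and 107.1 CPM in WT, 100.7 and 112.4 CPM in 41584, and 85.7 and 109.3 CPM in SOM. It was 119.9 and 85.6 CPM in 41589, 98.6 and 100.6 CPM in 41585, and 120.6 and 115.6 CPM in KO. The highest library was 1.41-fold the lowest. The deficient and competent lines differed by −0.01 ± 0.14 on the log2 scale, a fold of 0.995 with a 95% interval from 0.802 to 1.23 (adjusted p = 0.975 by edgeR). The sign of so small a difference turned under several of the alternatives tried.

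Of the 12 tested genes for the midzone and mitosis, 1 was called higher in the deficient lines and none lower. This was Incenp, a scaffold of the chromosomal passenger complex, at 165.2 against 117.1 CPM (0.50 ± 0.17, adjusted p = 0.0485). Its kinase Aurkb was at 63.9 against 47.2 CPM (0.42 ± 0.15, adjusted p = 0.0579), and Top2a, which untangles chromosomes, at 1248 against 1597 CPM (−0.36 ± 0.15, 0.0895). The list median was 0.08, and 21.8% of all tested genes were called in this comparison. The genes most like Kif4 over the libraries were Shoc2 (r = 0.916), Rsf1 (r = 0.916) and Wac (r = 0.912).

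Optn encodes optineurin, an autophagy receptor that binds ubiquitin and the kinase TBK1. The gene lies at chr2:5020642-5064051 on the minus strand. It had 17.6 and 16.2 CPM in WT, 15.3 and 11.8 CPM in 41584, and 8.06 and 15.97 CPM in SOM. The level was 13.1 and 14.3 CPM in 41589, 16.6 and 7.08 CPM in 41585, and 17.9 and 22.9 CPM in KO. KO had the highest mean, but its lower library (17.93 CPM) was close to the higher WT library (17.63 CPM). Its log2 difference from WT was 0.27 ± 0.43 and was not called. SOM and 41585 each held 1 library below all those of the other 4 lines. The deficient against competent difference was −0.02 ± 0.28, with an interval of the fold from 0.65 to 1.49 (adjusted p = 0.96 by edgeR). On the log2 scale this interval was the widest of the 5 genes.

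Of 11 tested genes for selective autophagy and TBK1, 1 was called lower and none higher in the deficient lines. In the same comparison 21.8% of all tested genes were called. Azi2, an adaptor of TBK1, was at 67.4 against 97.7 CPM (−0.56 ± 0.17, adjusted p = 0.031). Sqstm1, the autophagy receptor p62, was at 116.9 against 83.8 CPM (0.45 ± 0.17, adjusted p = 0.0665), and Calcoco1 at 43.1 against 34.0 CPM (0.32 ± 0.19, 0.217). The genes most like Optn were Arid3a (r = 0.933), Iffo2 (r = 0.919) and Traf1 (r = 0.916).

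Of 15 tested genes of the small RNA machinery, 2 were called higher in the deficient lines and 3 lower, 1 of them the targeted gene Dicer1, beside 21.8% of all tested genes called in either direction. The median of the 15 log2 differences was −0.20. Mov10, an RNA helicase bound to Argonaute, was at 200.7 against 45.1 CPM (1.899 ± 0.28, adjusted p = 0.00153). Ago1, an Argonaute protein, was at 195.5 against 85.8 CPM (1.13 ± 0.22, adjusted p = 0.00575). Dicer1 was lower, at 34.8 against 127.1 CPM (−1.52 ± 0.22, adjusted p = 0.00133). In 41589 against 41584 none of the 15 was called, and Mov10 differed by 0.51 ± 0.41.

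Of 4 primitive endoderm markers tested, 3 were called lower in the deficient lines, beside 21.8% of all genes called: Gata6 at 0.481 against 3.29 CPM, Pdgfra at 1.78 against 6.72 CPM and Sox7 at 0.593 against 1.80 CPM. The summed level of the 5 markers was 13.2 to 34.0 CPM in 41584, 8.10 to 14.4 CPM in WT and 4.93 to 9.09 CPM across the deficient lines. In 41589, with a summed level of 5.02 to 9.09 CPM, none of these markers was called against WT (Gata6 −0.59 ± 0.79, Pdgfra −0.27 ± 0.60, Sox7 0.07 ± 0.73). None of the 3 trophectoderm markers tested was called in the deficient against competent lines, with a summed level of 61.4 to 82.6 CPM in WT, 32.3 to 46.8 CPM in 41584 and 25.5 to 61.6 CPM in the deficient lines. In KO against WT, where Ppp4r1 was called, Elf5 of this list was called higher, at 6.48 against 0.441 CPM (adjusted p = 0.0231 by edgeR). Eomes (2.93 against 7.03 CPM) and Tfap2c (47.89 against 64.45 CPM) were lower in KO and were not called. The median log2 difference of the 3 was −0.43. In these bulk libraries fewer cells of a type and less RNA per cell cannot be told apart, and the part of such cells in the levels of the 5 genes was not tested.

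Since 41585 lacks miRNA processing by its label, the 3′ UTRs of the 5 genes were also searched for matches to 3 miRNA families of ES cells and differentiating cells. The mature sequences, from RefSeq, are given with the seed (bases 2 to 8) in capitals.
mmu-miR-294-3p: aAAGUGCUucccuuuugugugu
mmu-miR-17-5p: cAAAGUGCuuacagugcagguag
mmu-let-7a-5p: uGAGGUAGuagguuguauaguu

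The match to the miR-294 seed, AGCACTT, was in none of the 5 3′ UTRs, while 14.7% of 20710 mouse genes with a 3′ UTR of at least 50 nt held it. The match to the miR-17 seed, GCACTTT, was in none of the 5 and in 11.9% of those genes. The match to the let-7 seed, CTACCTC, was in none of the 5 and in 8.96%. The search covered 1 transcript per gene and says only that these letters are not in those 5 UTRs.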

How the data were processed

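The authors deposited raw counts (whole numbers) for 47643 Ensembl genes in each of 12 libraries. Reads were aligned with STAR 2.4.2a to mm10 (GRCm38), per the submitters' processing notes. The sources used here do not name the counting program, its strand setting or the annotation release. Symbols and positions came from GENCODE M21 (47224 genes matched, 1-based GRCm38 coordinates).

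The test was edgeR 4.0.16's robust quasi-likelihood fit of all 12 libraries, with TMM scaling, the filterByExpr filter, a mean per group and Benjamini-Hochberg adjustment over 14629 genes. The common biological coefficient of variation was 0.278, with 6 residual degrees of freedom. CPM divide a gene's reads by the TMM-scaled library total. Errors of log2 differences are standard errors, and intervals are 95% intervals of the fit. DESeq2 1.42.0 was an alternative. Correlations used log2 CPM with a prior count of 2. Tests were tried on simulated data. Transcripts were aligned with blastn 2.17.0+, reporting copies of at least 200 nt at 75% identity and antisense stretches of at least 60 nt.

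Named genes were the 5 genes, their pseudogenes named after them, Hdac1, Dicer1, up to 3 genes of each list with the smallest adjusted p in the deficient against competent lines, and the 3 genes of highest correlation with each of the 5. A gene that this rule takes from a list is not reported here. The members and lists were chosen with earlier results of these data known. Replicate libraries differed by far more than sampling noise (chi-square per degree of freedom 4.64 to 53.4), so each was counted once.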

Additional observations from a re-analysis of the deposited data

Results flagged for a closer look

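Of 10 sets of libraries (5 genes, competent and deficient lines), 2 held a library far from the others by Dixon's test at 95%, which flags about 1 in 20 by chance. Ppp4r1 stood at 58.7 CPM in replicate 1 of 41589, while the other 5 siRNA-deficient libraries held 94.5 to 115.1 CPM. Pdzd11 stood at 39.2 CPM in replicate 2 of 41584, while the other 3 siRNA-competent libraries held 22.4 to 24.9 CPM.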

How the results depend on the processing

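Of 480 values of the 5 genes under alternatives, 390 kept their direction and their side of the threshold (or, with no test, moved by less than the spread between replicates), 52 changed sign, 16 became calls, 13 stopped being calls and 9 moved by more than that spread. Neither difference called in the fit of all libraries changed sign. The sets without both replicates 2 of 41584 and 41589 were chosen after seeing the data. A line left with 1 library took its spread from the other lines. Depth limits Optn most (47 to 157 reads). The causes of these shifts were not tested.

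With DESeq2, 2 of the 5 genes were called higher in the deficient lines, beside 3711 of the 14629 genes in either direction. In 41585 against 41584 it called 1 of the 5, beside 2648 genes. It called 69 genes in 41589 against WT, 28 in 41584 against WT and 673 in SOM against WT. With DESeq2 and with its kind of size factors in edgeR, Optn was at −0.01 in 41589 against 41584 and Kif4 at 0.01 in 41584 against WT. With no filter, 2 of the 5 were called higher in the deficient lines, beside 4232 genes called, and 1 of the 5 in 41585 against 41584. Genes called were then 3 in 41589 against 41584, 541 in 41589 against WT, 2950 in KO against WT, 3073 in 41585 against 41584, 2271 in 41585 against 41589, 132 in 41584 against WT and 1345 in SOM against WT. Kif4 was then at 0.01 in the deficient lines and in 41584 against WT, and Pdzd11 at 0.01 in 41589 against 41584. With only the compared groups in the fit, 4892 genes were called in KO against WT, 403 in 41585 against 41584, 563 in 41585 against 41589 and 2035 in SOM against WT, with 2 of the 5 higher there. Pdzd11 was then at 0.01 in 41589 against 41584 and Kif4 at 0.01 in 41584 against WT.

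With SOM as competent, 0 of the 5 were called, with Kif4 at 0.04 and Optn at 0.09. With the line as the unit, 0 genes and 0 of the 5 were called, with Kif4 at 0.01 and Optn at 0.02. Replicate numbers showed no pairing common to all lines, although some lines moved together. The difference between replicates correlated between lines at −0.083 to 0.508 (median 0.042), above 0.1 in 5 of 15 pairs of lines. With the replicate number as a block, Pdzd11 was at 0 in 41589 against 41584, and 1 gene was called in 41589 against WT and 3 in SOM against WT. That block changed no call of the 5 genes.

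Without replicate 2 of 41584 and of 41589, Kif4 was at 0.11 in the deficient lines. In 41589 against 41584, 1 gene was called, with Pdzd11 at 0.34, Rangap1 at −0.33, Kif4 at 0.26 and Optn at −0.23. Kif4 was at 0.16 in 41589 against WT, and in 41584 against WT Ppp4r1 was at −0.11 and Pdzd11 at −0.08. Genes called were 4182 in KO against WT, 3149 in 41585 against 41584 and 4333 in 41585 against 41589, each of these last with 1 of the 5 higher, and 2275 in SOM against WT with 2 of the 5 higher.

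Leaving out 1 library at a time gave 811 to 4913 genes called and 0 to 2 of the 5 called higher in the deficient against competent lines, with Kif4 at −0.09 to 0.07 and Optn at −0.26 to 0.14. KO against WT had 237 to 606 genes and 0 of the 5. In 41589 against 41584, 0 to 1 genes were called, with Ppp4r1 at −0.27 to 0.53, Pdzd11 at −0.36 to 0.45, Rangap1 at −0.02 to 0.79, Kif4 at −0.31 to 0.16 and Optn at −0.16 to 0.22. In 41589 against WT 0 to 647 genes were called, with Kif4 at −0.33 to 0.16. In 41585 against 41584, 348 to 1820 genes and 0 to 1 of the 5 were called, with Pdzd11 at −0.24 to 0.57 and Optn at −0.95 to 0.26. In 41585 against 41589, 306 to 2435 genes were called, with Kif4 at −0.27 to 0.21 and Optn at −0.96 to 0.26. In 41584 against WT, 0 to 106 genes were called, with Ppp4r1 at −0.11 to 0.59, Pdzd11 at −0.08 to 0.72, Rangap1 at −0.40 to 0.42 and Kif4 at −0.09 to 0.06. In SOM against WT, 0 to 1 genes were called, with Rangap1 at −0.06 to 0.57 and Kif4 at −0.32 to 0.03.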
